A study of Mus musculus with 12 samples.

Results

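Of the 54146 gene records measured in mouse hearts, 8 were followed here. They are genes through which catecholamines act on heart muscle, matched by symbol to the Ensembl identifiers of the count files: the receptors Adrb1, Adra1a and Adra1b, the stimulatory G protein gene Gnas, the adenylyl cyclases Adcy5 and Adcy6, and the receptor kinases Grk2 and Grk5. All 8 passed the filter on low counts and were tested. The genes were named by symbol and not by a threshold on their values, although earlier results of these data were known when they were chosen.

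Polyadenylated RNA was sequenced from 12 heart libraries in 3 groups of 4. The TAC KO group came from NRON KO mice after transverse aortic constriction (TAC), an operation that narrows the aorta and loads the left ventricle with pressure. The TAC WT group came from NRON WT mice after the same operation, and the Sham WT group from NRON WT mice after sham surgery. All hearts were taken 6 weeks after surgery, and a sham-operated knockout group was not analysed here, so a knockout effect under TAC cannot be told apart from one that is present without it. NRON is a long noncoding RNA. Its gene, Nron, had 0 counts in all 12 libraries, which allows up to 3 counts or 0.0835 to 0.114 CPM (counts scaled to a common library size, the unit of all levels here), and leaves the genotype labels unchecked by expression. The labels do not state the age or sex of the mice, how the allele was made, or whether each library came from a separate animal, so the spread behind each p-value is that of libraries and may be technical.

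Noradrenaline and adrenaline act on cardiac muscle through beta and alpha-1 adrenergic receptors. Beta receptors couple to the stimulatory G protein, which activates adenylyl cyclase. The cyclic AMP that is made activates protein kinase A, which speeds and strengthens the heartbeat through its action on calcium handling proteins. Alpha-1 receptors couple to Gq proteins and phospholipase C and are known for their part in hypertrophic growth. Receptor kinases phosphorylate occupied receptors, which then bind arrestins and are silenced. Lowered beta-receptor density and raised receptor kinase activity are textbook features of the failing heart.

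Promoter windows of 250 bases before to 50 after a RefSeq start site (GRCm38.p6) were given for 5 of the 8 genes. Those of the 4 genes whose levels passed the test between TAC KO and TAC WT are shown. The windows are chr19:56721867-56722166 on the plus strand for Adrb1, chr11:43901188-43901487 and chr11:43836440-43836739 on the minus strand for Adra1b, which has an upstream and a downstream start, and chr19:60889499-60889798 on the plus strand for Grk5, and chr16:35154614-35154913 on the plus strand for Adcy5. Sequences run 5′ to 3′. Capitals mark the cyclic AMP response half-site (TGACG or its reverse complement CGTCA) and the core that NFAT factors bind (TTTCC or its reverse complement GGAAA).
Adrb1: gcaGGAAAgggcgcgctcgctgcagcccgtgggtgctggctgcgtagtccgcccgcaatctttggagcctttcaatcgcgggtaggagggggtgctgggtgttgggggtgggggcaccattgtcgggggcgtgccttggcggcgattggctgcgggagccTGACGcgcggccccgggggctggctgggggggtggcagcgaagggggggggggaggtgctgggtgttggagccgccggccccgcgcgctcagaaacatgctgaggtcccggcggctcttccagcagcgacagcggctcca
Adra1b upstream start: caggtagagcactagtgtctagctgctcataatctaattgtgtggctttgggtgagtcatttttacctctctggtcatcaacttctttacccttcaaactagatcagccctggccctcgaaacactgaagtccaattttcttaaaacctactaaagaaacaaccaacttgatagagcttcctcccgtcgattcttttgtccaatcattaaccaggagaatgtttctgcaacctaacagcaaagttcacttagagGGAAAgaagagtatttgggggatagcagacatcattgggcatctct
Adra1b downstream start: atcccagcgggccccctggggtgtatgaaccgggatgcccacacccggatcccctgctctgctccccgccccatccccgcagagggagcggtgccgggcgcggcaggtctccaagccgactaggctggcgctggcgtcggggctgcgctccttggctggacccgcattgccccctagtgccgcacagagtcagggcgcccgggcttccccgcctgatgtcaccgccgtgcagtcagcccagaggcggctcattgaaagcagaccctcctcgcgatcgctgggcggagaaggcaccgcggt
Grk5: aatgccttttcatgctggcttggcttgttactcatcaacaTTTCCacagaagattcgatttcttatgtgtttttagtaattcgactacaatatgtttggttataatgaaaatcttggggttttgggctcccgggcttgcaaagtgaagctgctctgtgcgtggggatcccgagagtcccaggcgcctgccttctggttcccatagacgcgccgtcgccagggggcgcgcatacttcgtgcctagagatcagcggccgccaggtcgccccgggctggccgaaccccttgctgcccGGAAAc
Adcy5: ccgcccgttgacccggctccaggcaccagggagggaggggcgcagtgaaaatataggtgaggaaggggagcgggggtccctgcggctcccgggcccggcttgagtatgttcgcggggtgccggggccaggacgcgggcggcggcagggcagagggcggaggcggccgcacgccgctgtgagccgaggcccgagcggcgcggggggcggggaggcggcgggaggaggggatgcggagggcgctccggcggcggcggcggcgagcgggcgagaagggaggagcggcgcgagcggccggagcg
The Adrb1 window held a half-site that began at base -90 and an NFAT core at base -247, and the upstream Adra1b window held an NFAT core at base 5. The Grk5 window held NFAT cores at bases -210 and 45, and the downstream Adra1b and the Adcy5 windows held neither motif. Over 32851 mouse promoter windows of this length, on both strands, 20.8% held a half-site and 61.3% held an NFAT core. The full response element TGACGTCA, which contains the half-site on either strand, was in 1.79% of windows and in none of the 5 printed. The GC box GGGCGG or CCGCCC, left in lower case, was in 35.7% of windows and in 3 of the 5, those of Adrb1, Adcy5 and the downstream Adra1b start. A match describes letters in a window and does not show that a factor binds there. Windows for Adra1a, Grk2 and Adcy6 were not used here.

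Libraries held 28565856 to 35777820 counts in TAC KO, 26288519 to 35945770 in TAC WT and 27596898 to 35491024 in Sham WT. Mitochondrially encoded genes took 18 to 20.7% of counts in TAC KO, 17.4 to 19.8% in TAC WT and 20.2 to 22.2% in Sham WT. The 6 cardiomyocyte markers summed to 57384 to 60950 CPM in TAC KO, 59466 to 61727 in TAC WT and 62218 to 72303 in Sham WT, so the tissue carried the markers of heart muscle. The lower sums of the TAC groups came mostly from Myh6, which averaged 24314 CPM in TAC KO, 24864 in TAC WT and 30683 in Sham WT. Of the 6 markers, Myh6 fell and Tnnc1 rose in TAC WT relative to Sham WT, and Myh6 and Tnnt2 fell in TAC KO relative to Sham WT. Actc1 averaged 12725 CPM in TAC KO, 13444 in TAC WT and 11747 in Sham WT. The 3 atrial markers summed to 1.7 to 2.65 CPM in TAC KO, 2.0 to 2.66 in TAC WT and 2.18 to 2.86 in Sham WT, with Myl7 at 58 counts and Sln at 12 counts over all libraries, so atrial markers were nearly absent. Fibroblast markers summed to 861 to 1236 CPM in TAC KO, 771 to 1065 in TAC WT and 649 to 749 in Sham WT. Macrophage markers summed to 141 to 178 CPM in TAC KO, above 85.8 to 127 in TAC WT and 102 to 113 in Sham WT, and 4 of the 6 were higher in TAC KO than in TAC WT. Smooth muscle and pericyte markers summed to 445 to 541 CPM in TAC KO, 412 to 520 in TAC WT and 423 to 487 in Sham WT. Of these 7, Vtn, Tagln and Cnn1 were higher in TAC KO than in TAC WT, by 0.85, 0.81 and 1.18 on the log2 scale, and 5 were higher in TAC KO than in Sham WT. Endothelial markers summed to 769 to 877 CPM in TAC KO, below 905 to 1128 in TAC WT and 897 to 1074 in Sham WT. Only Kdr and Tek of the 5 were called lower in TAC KO than in TAC WT. Kdr averaged 223 CPM in TAC KO and 343 CPM in TAC WT, while Cdh5 averaged 291 CPM in TAC KO and 298 CPM in TAC WT. The TAC KO libraries also stood apart in a technical measure. Genes of highest GC content, set against those of lowest (top and bottom quintiles), lay 0.10 to 0.43 higher on the log2 scale in TAC KO, against -0.15 to -0.06 in TAC WT and -0.12 to -0.04 in Sham WT. The longest genes, set against the shortest in the same way, lay at -0.25 to -0.14 in TAC KO, -0.04 to 0.17 in TAC WT and 0.01 to 0.13 in Sham WT. The part of these cell type and library differences in the results was not tested, except where values with the GC and length trends removed are given. In bulk RNA, fewer cells of a type and less RNA per cell cannot be told apart.

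Per kilobase of merged exon, Gnas was the most abundant member in all 3 groups and Adra1a the least. In TAC KO the order by mean CPM per kilobase was Gnas (96.3), Adcy6 (33.6), Grk2 (18.3), Adcy5 (14.4), Adra1b (9.08), Adrb1 (6.19), Grk5 (5.61) and Adra1a (0.888). Adrb1 and Grk5 in that order differed by less than the spread of their libraries. In TAC WT, Grk5 (8.01) stood above Adra1b (5.15) and Adrb1 (4.54), and the last 2 had overlapping libraries. Sham WT had the same order as TAC KO, with Adra1b at 12.4, Adrb1 at 7.64 and Grk5 at 5.56 CPM per kilobase, and the libraries of Adcy5 and Adra1b overlapped there. Dividing by the longest transcript gave the same order, although the level of Gnas, which has 24 annotated transcripts, then stood at 273 CPM per kilobase in TAC KO.

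**Figure D1:**
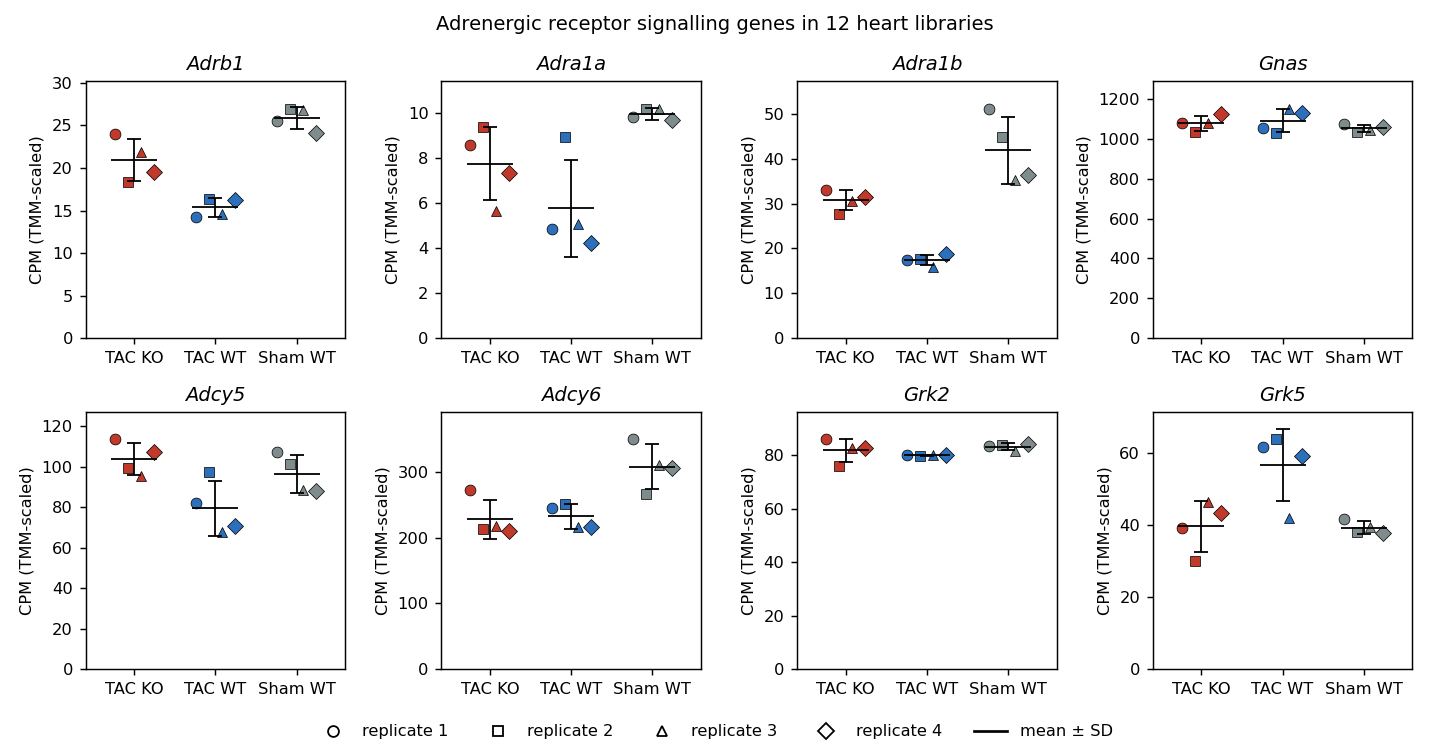
CPM of each of the 8 genes (vertical axes from 0, 1 panel a gene), with 1 point for each library and a bar and whisker for the mean and SD of 4 libraries, in the order TAC KO, TAC WT and Sham WT. Adra1b lay between 27.7 and 33.0 CPM in TAC KO, between 15.9 and 18.7 in TAC WT and between 35.3 and 51.1 in Sham WT, while Gnas and Grk2 lay at similar heights in the 3 groups.

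TAC WT hearts were first set against Sham WT hearts, to see how pressure overload changed these genes in wild-type mice. All 3 adrenergic receptor genes and Adcy6 fell, and Grk5 rose, so 5 of the 8 passed an adjusted p under 0.05 in edgeR's quasi-likelihood test, against 19.7% of the 15477 genes tested. The 1 that rose stood against 9.67% of all genes, and the 4 that fell against 1555 of 15477 genes. The median log2 fold change of the 8 was -0.34, against -0.00 for all genes tested. TAC KO hearts were then set against TAC WT hearts, to see what differed between the labelled genotypes after the same operation. Adrb1, Adra1b and Adcy5 were higher and Grk5 was lower in TAC KO, 4 of 8, against 33.0% of all genes tested (15.7% higher and 17.3% lower), and the median log2 fold change of the 8 was 0.21 against -0.00. Between TAC KO and Sham WT, Adrb1, Adra1b and Adcy6 were lower in TAC KO, 3 of 8, against 27.6% of all genes tested (14.8% lower), with a median of -0.17 against 0.00. With 8 genes, the share called in this last comparison was near that of all genes. Each group enters 2 of the comparisons, so the 3 sets of values are not independent of each other, and they are given side by side for each gene.

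**Figure D2:**
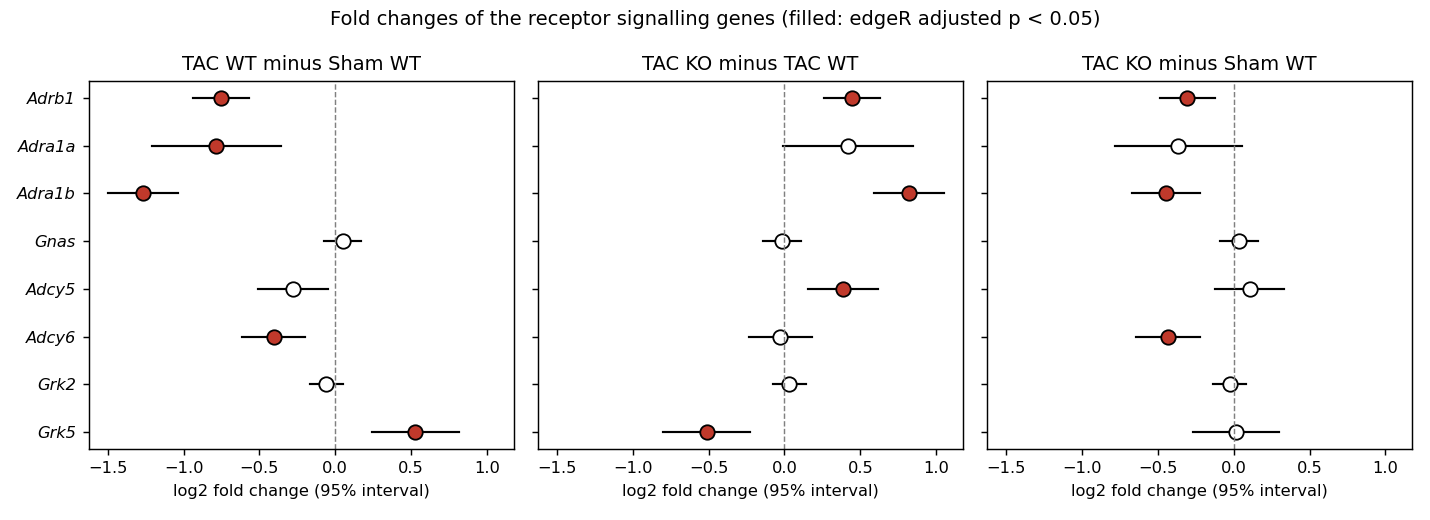
Log2 fold changes of the 8 genes from edgeR (horizontal axis) with 95% confidence intervals, for the 3 comparisons. Adra1b lay at -1.27 for TAC WT against Sham WT, 0.82 for TAC KO against TAC WT and -0.45 for TAC KO against Sham WT, and the intervals of Gnas and Grk2 reached across 0 in all 3.

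Adrb1 encodes the beta-1 adrenergic receptor, the main beta receptor of cardiac muscle (ENSMUSG00000035283.4, chromosome 19 from 56722199 to 56733113, GRCm38, plus strand). It had 24, 18.4, 21.8 and 19.5 CPM in the TAC KO libraries, 14.3, 16.3, 14.6 and 16.3 CPM in TAC WT and 25.5, 27.0, 26.8 and 24.1 CPM in Sham WT. The TAC WT libraries were all below every other library, and the TAC KO libraries lay between the other groups, with TAC KO 1 just below the lowest Sham WT library. In TAC WT the log2 fold change against Sham WT was -0.75 (SE 0.09, edgeR adjusted p = 5.08e-05). TAC KO stood 0.45 above TAC WT (SE 0.09, edgeR adjusted p = 0.0016) and -0.30 from Sham WT (SE 0.08, edgeR adjusted p = 0.0157). With the GC and length trends removed, the 2 TAC KO values were 0.28 (edgeR adjusted p = 0.0117) and -0.46 (edgeR adjusted p = 0.000696). The call against Sham WT was lost without TAC KO 4, at -0.27 (edgeR adjusted p = 0.0502).

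Adra1b encodes the alpha-1B receptor, which couples to Gq (ENSMUSG00000050541.14, chromosome 11 from 43774606 to 43901210, minus strand). Its CPM was 33.0, 27.7, 30.7 and 31.5 in TAC KO, 17.4, 17.6, 15.9 and 18.7 in TAC WT and 51.1, 44.8, 35.3 and 36.3 in Sham WT. None of the 3 groups overlapped another, although Sham WT spread widely, with its first library the highest. The log2 fold change was -1.27 for TAC WT against Sham WT (SE 0.11, edgeR adjusted p = 8.1e-06). It was 0.82 for TAC KO against TAC WT (SE 0.11, edgeR adjusted p = 0.000157) and -0.45 for TAC KO against Sham WT (SE 0.11, edgeR adjusted p = 0.00679). Under 8 alternative methods and settings, GC and length trend removal among them, these 2 TAC KO values always passed. They ran from 0.70 to 0.86 against TAC WT and from -0.56 to -0.40 against Sham WT. The Adra1b change was the members' largest in all 3 comparisons, although in TAC KO against Sham WT Adcy6 was close, at -0.43.

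Adra1a encodes the alpha-1A receptor, another alpha-1 subtype of the heart (ENSMUSG00000045875.13, chromosome 14 from 66635251 to 66771168, plus strand). It had 8.59, 9.39, 5.67 and 7.36 CPM in TAC KO, 4.84, 8.96, 5.08 and 4.23 CPM in TAC WT and 9.81, 10.2, 10.2 and 9.68 CPM in Sham WT. Every library of both TAC groups was below every Sham WT library, but TAC WT 2 lay apart from its group and inside the TAC KO range. TAC WT fell by 0.78 on the log2 scale relative to Sham WT (SE 0.20, edgeR adjusted p = 0.0126). The difference between TAC KO and TAC WT did not pass, at 0.42 with a 95% interval of -0.01 to 0.85 (edgeR adjusted p = 0.125), and it was 0.71 and passed without TAC WT 2 (edgeR adjusted p = 0.00302). It also passed without TAC KO 3, at 0.54 (edgeR adjusted p = 0.0488). It was 0.30 without TAC WT 4 (edgeR adjusted p = 0.28) and 0.25 with 1 surrogate variable (edgeR adjusted p = 0.217). Against Sham WT, TAC KO stood at -0.37, with an interval of -0.78 to 0.05 (edgeR adjusted p = 0.178).

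Counting genes whose libraries did not overlap between groups gave 6 of 8 for TAC WT against Sham WT (24.7% of all genes tested), 2 of 8 for TAC KO against TAC WT (28.5%) and 3 of 8 for TAC KO against Sham WT (30.7%). With 8 genes, the last 2 counts were near the shares of all genes. The 3 receptor genes were among the 6 in the first of these comparisons. They were also the 3 in the last, where Adra1a did not pass the test (edgeR adjusted p = 0.178).

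Gnas encodes the alpha subunit of the stimulatory G protein, which carries the signal from beta receptors to adenylyl cyclase (ENSMUSG00000027523.19, chromosome 2 from 174284320 to 174346744, plus strand). It had 1080, 1031, 1076 and 1123 CPM in TAC KO, 1051, 1029, 1150 and 1128 CPM in TAC WT and 1076, 1034, 1043 and 1057 CPM in Sham WT. The groups overlapped, and no comparison passed. The 95% intervals of the log2 differences were -0.07 to 0.17 for TAC WT against Sham WT and -0.14 to 0.11 for TAC KO against TAC WT. Gm20721, which lies on the opposite strand within Gnas, resembles a Gnas transcript at 99.3% identity over 86.6% of its length and had 802 counts over all libraries, so reads could be split between the 2 genes. The strand setting of the counting is not known, and the antisense gene Nespas, which shares 988 exon bases with Gnas, had 3 counts.

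Adcy5 and Adcy6 encode the 2 main adenylyl cyclases of cardiac muscle, both inhibited by calcium. Adcy6 (ENSMUSG00000022994.9, chromosome 15 from 98589973 to 98610076, minus strand) had 272, 213, 218 and 210 CPM in TAC KO, 245, 251, 216 and 217 CPM in TAC WT and 349, 266, 311 and 305 CPM in Sham WT. TAC WT did not overlap Sham WT, whereas TAC KO 1 was higher than Sham WT 2. Adcy6 fell in both TAC groups relative to Sham WT, by 0.43 on the log2 scale in TAC KO (SE 0.10, edgeR adjusted p = 0.00527) and by 0.41 in TAC WT (SE 0.10, edgeR adjusted p = 0.00917). The difference between TAC KO and TAC WT was -0.03, with an interval of -0.23 to 0.18 (edgeR adjusted p = 0.861). The antisense gene Gm29331 shares 605 exon bases with Adcy6 and had 47 counts over all libraries.

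Adcy5 (ENSMUSG00000022840.9, chromosome 16 from 35154877 to 35305738, plus strand) had 113, 99.3, 95.2 and 107 CPM in TAC KO, 81.9, 97.4, 67.9 and 70.4 CPM in TAC WT and 107, 101, 88.6 and 87.9 CPM in Sham WT. TAC WT 2 was the high library of its group, as for Adra1a, and was the only TAC WT library within the TAC KO range. TAC KO rose by 0.38 on the log2 scale relative to TAC WT (SE 0.11, edgeR adjusted p = 0.0137). TAC WT stood at -0.28 against Sham WT, with an interval of -0.51 to -0.05, and did not pass (edgeR adjusted p = 0.082), although without TAC WT 2 it passed at -0.39 (edgeR adjusted p = 0.00856). TAC KO and Sham WT overlapped, with a difference of 0.11 and an interval of -0.12 to 0.33 (edgeR adjusted p = 0.488).

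Receptor kinases make up the last step. Grk2 encodes the kinase that the beta-gamma subunits of G proteins bring to occupied receptors (ENSMUSG00000024858.13, chromosome 19 from 4286001 to 4306222, minus strand). It had 85.9, 76.1, 82.5 and 82.7 CPM in TAC KO, 80.2, 79.6, 80.1 and 80.2 CPM in TAC WT and 83.6, 83.9, 81.5 and 84.2 CPM in Sham WT. TAC WT lay just below Sham WT without overlap, and the difference of -0.06 (95% interval -0.17 to 0.05) did not pass (edgeR adjusted p = 0.467). TAC KO against TAC WT gave 0.03, with an interval of -0.08 to 0.14 (edgeR adjusted p = 0.668).

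Grk5 encodes a kinase held at the membrane, which in mice also acts in the nucleus of cardiac muscle cells (ENSMUSG00000003228.8, chromosome 19 from 60889749 to 61095968, plus strand). It had 39.1, 29.9, 46.3 and 43.2 CPM in TAC KO, 61.6, 63.6, 42.0 and 59.0 CPM in TAC WT and 41.7, 38.0, 39.3 and 37.8 CPM in Sham WT. Every TAC WT library was above every Sham WT library, though TAC WT 3 exceeded the highest of them by little and lay inside the TAC KO range. Grk5 rose by 0.53 on the log2 scale in TAC WT relative to Sham WT (SE 0.13, edgeR adjusted p = 0.0122). It fell by 0.51 in TAC KO relative to TAC WT (SE 0.13, edgeR adjusted p = 0.00953). TAC KO differed from Sham WT by 0.01, with an interval of -0.27 to 0.30 (edgeR adjusted p = 0.949).

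Ratios of 2 genes within a library do not depend on how libraries are scaled. They can still carry the GC and length trends, and no ratio had those trends removed. The fitted trend of TAC KO minus TAC WT (log2) was -0.06 for Grk5 and 0.09 for Grk2. It was 0.06 for Adcy5 and 0.03 for Adcy6, and -0.06 for Adra1a and 0.12 for Adra1b. The log2 ratio of Grk5 to Grk2 counts averaged -1.06 ± 0.23 in TAC KO, -0.52 ± 0.28 in TAC WT and -1.09 ± 0.07 in Sham WT (SD, n = 4). TAC WT was above Sham WT by 0.57, in all 4 libraries (two-sided exact permutation p = 0.0286, adjusted over 9 ratio tests 0.0857), and TAC KO differed from TAC WT by -0.54 (exact permutation p = 0.0571, adjusted 0.129). The log2 ratio of Adcy5 to Adcy6 averaged -1.13 ± 0.13 in TAC KO, -1.56 ± 0.13 in TAC WT and -1.68 ± 0.19 in Sham WT. All 4 TAC KO libraries exceeded every library of the other groups, by 0.43 relative to TAC WT and 0.54 relative to Sham WT in the mean (exact permutation p = 0.0286 and adjusted 0.0857 for each). The ratio of Adra1a to Adra1b overlapped in all 3 groups, with differences of 0.40 for TAC WT against Sham WT, -0.35 for TAC KO against TAC WT and 0.05 for TAC KO against Sham WT. Without TAC WT 2 the first 2 were 0.17 and -0.13, and the second was -0.21 without TAC KO 3. An exact p of 0.0286 is the smallest that 4 against 4 allows, and no ratio passed after adjustment.

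**Figure D3:**
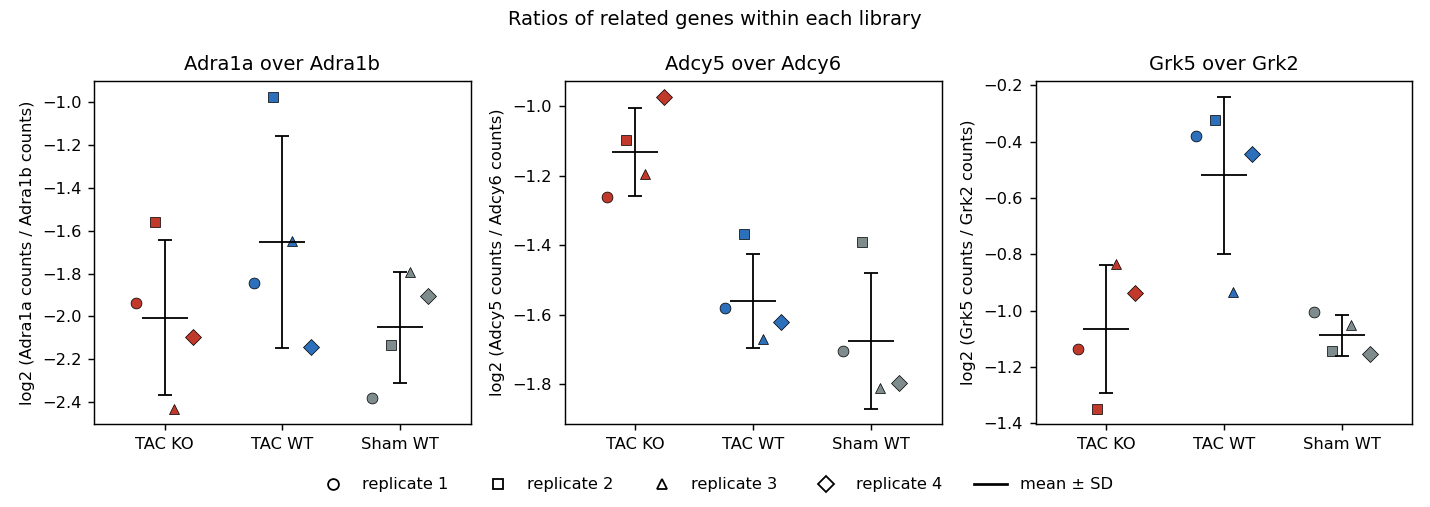
Log2 ratios of counts within each library (vertical axis) for Grk5 over Grk2, Adcy5 over Adcy6 and Adra1a over Adra1b, with 1 point for each library and the mean and SD of 4 libraries, in the order TAC KO, TAC WT and Sham WT. For Adcy5 over Adcy6, TAC KO lay between -1.26 and -0.97, above the other groups, and TAC WT 3 is the low point of its group for Grk5 over Grk2.

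The wider pathway was read from 9 lists with 119 genes, of which 113 were tested. In TAC WT against Sham WT, 11 rose and 20 fell. In TAC KO against TAC WT, 15 were higher and 32 lower in TAC KO, and in TAC KO against Sham WT 6 were higher and 26 lower. The shares called were 27.4% of the 113 in TAC WT against Sham WT (19.7% of all genes tested), 41.6% in TAC KO against TAC WT (33.0%) and 28.3% in TAC KO against Sham WT, near the 27.6% of all genes. These all-gene shares are the background for each list. The median log2 fold change of the 113 was 0.03 in the first, -0.08 in the second and -0.12 in the third of these comparisons. Among 6 further adrenergic receptor genes, 4 could be tested and none passed in any comparison in edgeR. An unadjusted p under 0.05 was found for 1 of them, in TAC KO against Sham WT, where 1 passed without TAC KO 4 or without Sham WT 3. DESeq2 and limma voom called 0 in each comparison.

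Among the other receptor kinases and arrestins, Arrb1, the gene of beta-arrestin 1, averaged 30.5 ± 1.36 CPM in TAC KO, 37.9 ± 2.6 in TAC WT and 30.8 ± 2.55 in Sham WT. It rose in TAC WT by 0.30 on the log2 scale relative to Sham WT (SE 0.07, edgeR adjusted p = 0.00889) and fell by 0.31 in TAC KO relative to TAC WT (SE 0.07, edgeR adjusted p = 0.00461). Grk6, another receptor kinase gene, fell by 0.30 in TAC WT relative to Sham WT. Of the 5 genes in this list, 3 passed in that comparison, 2 passed for TAC KO against TAC WT, both lower (1 without TAC WT 3 or with no low-count filter), and 0 for TAC KO against Sham WT. In that last comparison 1 had an unadjusted p under 0.05, DESeq2 called 0, and 1 passed with limma voom, with the GC and length trends removed and without TAC KO 1.

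Of 9 other adenylyl cyclase and cyclase-associated genes tested, 2 passed in TAC WT against Sham WT, 4 in TAC KO against TAC WT and 2 in TAC KO against Sham WT. The first count was 1 with a filter of 1 CPM in 4 libraries and the last was 1 without Sham WT 1. Adcy7, a cyclase of the class that beta-gamma subunits stimulate, averaged 25.3 ± 4.80 CPM in TAC KO, 37.4 ± 5.46 in TAC WT and 17.6 ± 2.30 in Sham WT. It rose by 1.09 in TAC WT and by 0.52 in TAC KO relative to Sham WT on the log2 scale, and fell by 0.57 in TAC KO relative to TAC WT. Adcy8, a cyclase stimulated by calcium, was expressed at a low level, at 1.03 ± 0.24 CPM in TAC KO, 0.367 ± 0.148 in TAC WT and 0.957 ± 0.0819 in Sham WT. It fell by 1.37 in TAC WT relative to Sham WT and was higher by 1.47 in TAC KO relative to TAC WT (edgeR adjusted p = 0.00221 and 0.000931).

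Among 18 other G protein subunit genes, 4 passed in TAC WT against Sham WT, 9 in TAC KO against TAC WT and 5 in TAC KO against Sham WT. With 1 library left out at a time these counts fell as low as 1 (without TAC WT 1, and 2 without Sham WT 1), 5 (without TAC WT 1) and 2 (without TAC KO 1, Sham WT 3 or Sham WT 4), and the last was 3 without Sham WT 1. The shares of 22.2% in the first and 27.8% in the last of these comparisons were near those of all genes (19.7% and 27.6%). Gnao1, which encodes an inhibitory-class alpha subunit, rose by 0.93 in TAC WT relative to Sham WT. Gnaq, the Gq subunit to which alpha-1 receptors couple, averaged 31.8 ± 1.67 CPM in TAC KO, 48.4 ± 2.34 in TAC WT and 44.4 ± 2.13 in Sham WT. TAC KO was below both other groups in every library, by 0.61 on the log2 scale relative to TAC WT (edgeR adjusted p = 2.23e-05) and by 0.48 relative to Sham WT (edgeR adjusted p = 0.000121).

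RGS proteins speed the return of G proteins to their resting state. Of 13 RGS genes, 3 fell and 1 rose in TAC WT relative to Sham WT. Rgs2, which acts on Gq, averaged 21.1 ± 6.92 CPM in TAC KO, 13.7 ± 3.41 in TAC WT and 41.0 ± 5.20 in Sham WT, a fall of 1.58 on the log2 scale in TAC WT and of 0.96 in TAC KO relative to Sham WT. Rgs6 fell by 0.87 and Rgs7 by 1.21 in TAC WT relative to Sham WT, and by 0.54 and 1.88 in TAC KO relative to Sham WT. Between TAC KO and TAC WT, 4 RGS genes passed, and 1 passed without TAC KO 1, without TAC WT 4 or in a fit of these groups alone, and 2 without TAC KO 4. In TAC KO against Sham WT 5 passed, all lower, and 3 with the GC and length trends removed.

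Protein kinase A subunits, its inhibitors, the anchoring proteins that place the kinase, the Epac proteins, and Popdc2 and Bves formed a list of 23. In TAC WT, Prkaca, the main catalytic subunit gene, fell by 0.35 and Pkig, a kinase inhibitor gene, fell by 0.41 relative to Sham WT, and 3 of 23 passed in all. The number was 5 without TAC KO 1, 6 without TAC WT 2 or TAC WT 3, and 8 in limma voom. Relative to TAC WT, 11 of the 23 were lower and 2 higher in TAC KO, with a median of -0.21, and 8 were lower and 0 higher with the GC and length trends removed. The anchoring protein genes Akap9, Akap11, Akap12 and Akap13 were lower in TAC KO than in TAC WT by 0.46, 0.55, 0.61 and 0.45 on the log2 scale. With the trends removed, Akap9 stood at -0.24 and Akap11 at -0.34 and both still passed. Relative to Sham WT, 10 were lower in TAC KO and 0 higher, and 9 were lower and 1 higher with the trends removed.

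Among 15 genes of protein kinase A substrates, Hspb6, a small heat shock protein gene, rose by 0.72 in TAC WT and 0.48 in TAC KO relative to Sham WT. Pln, which encodes the calcium pump inhibitor phospholamban, fell by 0.47 and the calcium channel subunit gene Cacnb2 by 0.58 in TAC WT relative to Sham WT. The potassium channel gene Kcnq1 averaged 47.8 ± 4.23 CPM in TAC KO, 27.6 ± 3.97 in TAC WT and 44.3 ± 5.73 in Sham WT, and its log2 fold changes were -0.68 for TAC WT against Sham WT and 0.79 for TAC KO against TAC WT. Its partner Kcne1 had 4.30 ± 1.54 CPM in TAC KO, 1.28 ± 0.27 in TAC WT and 1.83 ± 0.24 in Sham WT, higher in TAC KO by 1.76 relative to TAC WT and by 1.24 relative to Sham WT. Creb1, a transcription factor gene of the cyclic AMP response, was lower in TAC KO by 0.64 relative to TAC WT, and by 0.36 with the GC and length trends removed. In all, 6 of 15 passed in TAC WT against Sham WT, 7 in TAC KO against TAC WT and 7 in TAC KO against Sham WT, and the last count was 4 with the trends removed or without any single TAC KO or Sham WT library.

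Of 18 effectors of alpha-1 receptors, Arhgef12, a guanine nucleotide exchange factor gene, averaged 168 ± 14.7 CPM in TAC KO, 242 ± 16.5 in TAC WT and 178 ± 11.2 in Sham WT. It rose by 0.44 in TAC WT relative to Sham WT and fell by 0.52 in TAC KO relative to TAC WT. The phospholipase C genes Plcb1 and Plcb4 were lower in TAC KO than in TAC WT by 0.56 and 0.44, and Plcb4 stood at -0.28 with the trends removed. The inositol trisphosphate receptor gene Itpr2 was lower in TAC KO by 0.46 relative to TAC WT and by 0.33 relative to Sham WT. In all, 5 of 18 passed in TAC KO against TAC WT, all lower, a share of 27.8% against 33.0% of all genes. Only Itpr2 passed in TAC KO against Sham WT, 1 of 18 or 5.56% against 27.6% of all genes. With the trends removed 4 passed there, and 5 in limma voom. In TAC WT against Sham WT 4 passed, 22.2% against 19.7% of all genes. That count was 1 without TAC WT 1 or Sham WT 4, and 2 without TAC KO 2, TAC KO 3, TAC KO 4, Sham WT 1, Sham WT 2, Sham WT 3 or TAC WT 3, with no low-count filter, in a fit of these groups alone and with 1 surrogate variable.

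Of 8 tested genes for the synthesis, uptake and breakdown of catecholamines, 4 fell and 1 rose in TAC WT relative to Sham WT, with a median of -0.83. Maob, a monoamine oxidase gene, averaged 41.0 ± 2.77 CPM in TAC KO, 28.1 ± 4.81 in TAC WT and 50.7 ± 4.33 in Sham WT, and fell by 0.85 in TAC WT relative to Sham WT. Slc22a3, an extraneuronal monoamine transporter gene, averaged 7.40 ± 1.13 CPM in TAC KO, 4.57 ± 1.24 in TAC WT and 9.52 ± 1.54 in Sham WT. Both were higher in TAC KO than in TAC WT, Maob by 0.54 and Slc22a3 by 0.69 on the log2 scale. The decarboxylase gene Ddc averaged 7.64 ± 0.92 CPM in TAC KO and 2.85 ± 0.90 CPM in TAC WT, a log2 fold change of 1.42 (SE 0.33, edgeR adjusted p = 0.00556).

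**Figure D4:**
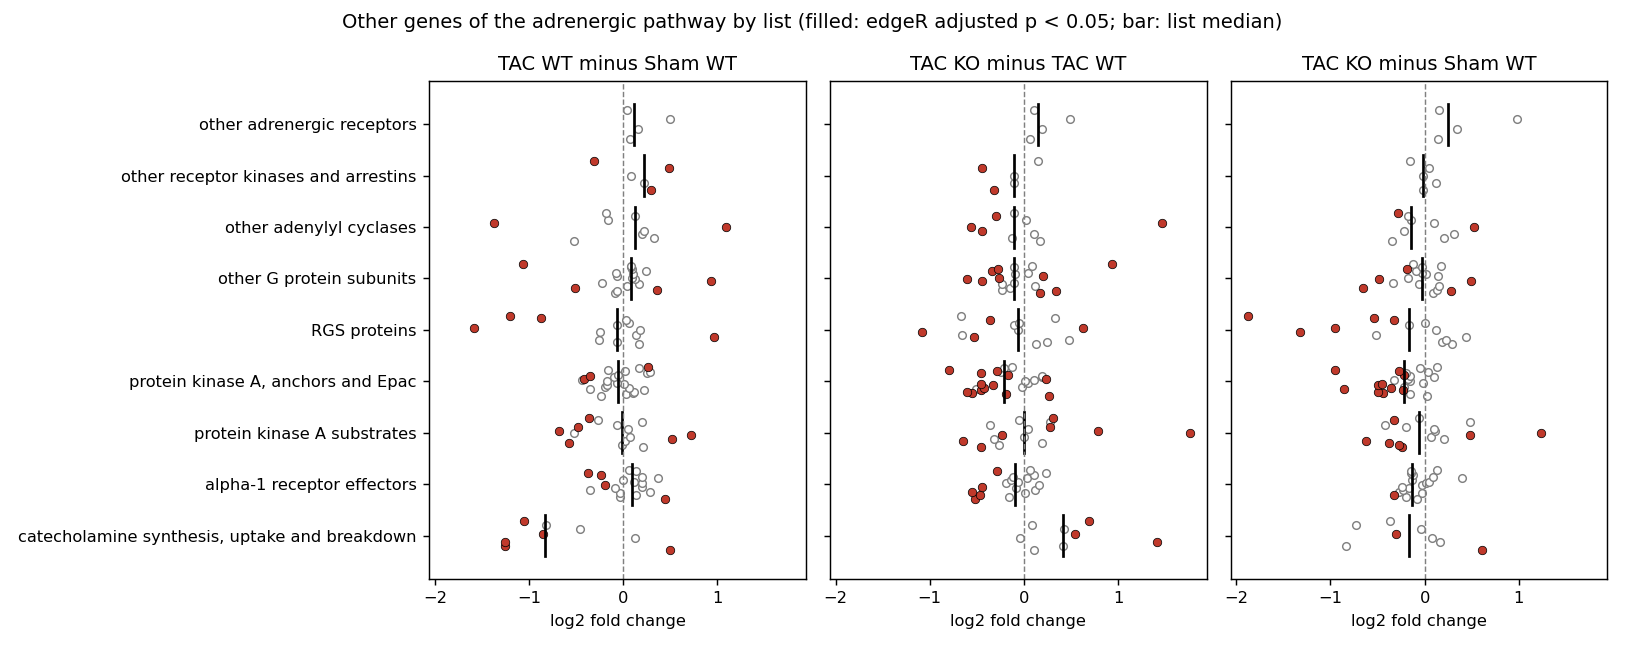
Log2 fold changes from edgeR (horizontal axis) of the tested genes of the 9 pathway lists (rows), in 1 panel for each comparison. Each gene is 1 point, filled where it passed an adjusted p under 0.05. In the panel of TAC KO against TAC WT, 11 of 23 genes in the row of protein kinase A, anchors and Epac were called lower and 2 higher.

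Genes with the most similar profiles were sought among 11980 genes, by the root mean square difference of centred log2 CPM over the 12 libraries. The nearest to Adrb1 were P3h4 (0.101) and Ncald (0.104), and the nearest to Adra1b were Sema6c (0.191) and Tnfaip8 (0.198). The nearest to Adra1a were Pm20d1 (0.159) and Asb15 (0.172). Pdlim5 (0.106) and Fam168a (0.123) were nearest to Grk5, Ogdh (0.069) and Pygm (0.0782) to Adcy5, and Ppm1l (0.0983) and Trpm4 (0.108) to Adcy6. Pdlim5, a gene of the sarcomeric Z disc, averaged 884 CPM in TAC KO, 1279 CPM in TAC WT and 907 CPM in Sham WT. It was picked for its likeness to Grk5 in these same libraries, so a shared high point in TAC WT follows from that choice.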

How the data were processed

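Counts were deposited by the authors as raw whole-number counts per gene, 1 file a library, with 54146 records. Per the submitters' processing notes, the tools, in no stated order or role, were featureCounts 1.6.4, STAR, DESeq2, bcl2fastq, MultiQC 1.7, StringTie 1.3.5, FastQC 0.11.8 and Trim Galore 0.5.0, with build GRCm38. Per the labels' protocols, libraries came from 250 ng of RNA and a directional kit; the strand setting and annotation release are not given in the sources used here. Symbols came from GENCODE M21 by identifier (54079 records).

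The 12 libraries entered 1 edgeR 4.0.16 fit (R 4.3.3) with TMM scaling and filterByExpr, which left 15477 genes; the quasi-likelihood test was adjusted by Benjamini-Hochberg over these, at 0.05. The SE of a log2 fold change is not an output of this test. It was taken as the absolute log2 fold change over the square root of the F statistic, and 95% intervals used the t distribution. CPM used TMM-scaled library sizes. Ratios were log2 of counts plus 0.5. Alternatives used RLE scaling, DESeq2 1.42.0, limma 3.58.1 voom with quality weights for libraries (called limma voom here), other filters and the compared groups alone. Others used sva 3.50.0, GC and length splines with 5 degrees of freedom, and removal of each library. Tests were checked on simulated data. Near-identical copies were sought with minimap2 2.31-r1302 at 95% identity over 50% of a transcript.

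Replicates were numbered in accession order, which names libraries only; no 2 files were identical. Members, lists and the naming rule (up to 4 genes of smallest p a list, and the 2 nearest profiles of each called member) were chosen with earlier results of these data known. Some genes the rule allowed are not reported here.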

Additional observations from a re-analysis of the deposited data

Results flagged for a closer look

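Dixon's test was applied to 33 groups of 4 libraries, where chance flags about 1 group in 20, and 2 were flagged. Adcy6 in TAC KO 1 had 272 CPM, while the other TAC KO libraries lay between 210 and 218 CPM, so this 1 library lay far from the rest of its group. Grk2 in TAC WT 2 had 79.6 CPM, while the other TAC WT libraries lay between 80.1 and 80.2 CPM. The spread of Grk2 in that group was 0.28 CPM (SD, n = 4), so the separation is small in absolute terms.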

How the results depend on the processing

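The 24 log2 fold changes of the 8 genes gave 480 values under the alternatives. Of these, 457 kept their direction and side of the threshold, 8 newly passed, 1 no longer passed and 14 changed sign, all of uncalled differences near 0. Adrb1 in TAC KO against Sham WT no longer passed without TAC KO 4. Adcy5 in TAC WT against Sham WT newly passed with limma voom (adjusted p = 0.0436), with no low-count filter (0.042) and without TAC WT 2, Adra1a in TAC KO against TAC WT with limma voom (0.0483) and without TAC KO 3 or TAC WT 2, and Adra1a in TAC KO against Sham WT with limma voom (0.0277) and without TAC WT 2 (0.0471). With the GC and length trends removed, Grk2 in TAC KO against TAC WT stood at -0.062 and Gnas in TAC KO against Sham WT at -0.00098. With limma voom, Gnas in TAC KO against TAC WT stood at 0.0076.

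With 1 library left out at a time, the differences that changed sign ran from -0.12 to 0.013 for Adcy6 and -0.042 to 0.011 for Gnas in TAC KO against TAC WT, and from -0.042 to 0.011 for Grk2 and -0.068 to 0.13 for Grk5 in TAC KO against Sham WT. Leaving out 1 library gave 5 to 6 called members in TAC WT against Sham WT, 4 to 5 in TAC KO against TAC WT and 2 to 4 in TAC KO against Sham WT, where Adrb1 accounts for the loss and Adra1a for the gain. Ratios of Grk5 to Grk2 then differed by 0.50 to 0.71 in TAC WT against Sham WT and -0.053 to 0.12 in TAC KO against Sham WT. Ratios of Adcy5 to Adcy6 differed by 0.37 to 0.49 in TAC KO against TAC WT and 0.49 to 0.64 in TAC KO against Sham WT, and those of Adra1a to Adra1b by 0.17 to 0.56 in TAC WT against Sham WT, -0.52 to -0.13 in TAC KO against TAC WT and -0.10 to 0.19 in TAC KO against Sham WT. With 3 libraries against 4 the smallest exact p is 0.0571, so no ratio could pass. The cause of other moves was not tested. Of 1557 values for named pathway genes, 94 no longer passed and 0 changed sign.

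No paired analysis was run, because the labels give no pairing between libraries of different groups. TAC and sham surgery were compared in wild-type hearts only, TAC KO libraries differ from the others in their GC and length trends, and the labels name no batch. Depth limits low genes such as Adcy8, at 0.367 CPM in TAC WT, most.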
